A study of Mus musculus with 2 samples.

Results

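The 83 genes for proteins of the cytosolic ribosome and 5 host genes of small nucleolar RNAs (snoRNAs) were followed in single cells of mouse colorectal tumours. Members were chosen with earlier results of these data known. A pattern of symbols took the large subunit (Rpl, Rplp) and small subunit (Rps, Rpsa) genes, without pseudogenes and without the Rps6k kinases. The hosts Gas5, Snhg1, Snhg6, Snhg8 and Snhg12 were added by name. This gave 88 of the 32285 genes in the matrices, 51 of the large subunit and its P-stalk, 32 of the small subunit and 5 hosts, and 87 of them had at least 1 UMI (unique molecular identifier, the count of 1 captured transcript) in a barcode. Both groups of mice carried floxed Mtch2 alleles (Mtch2fl/fl) and received AOM-DSS, the carcinogen azoxymethane with the colitis-inducing dextran sulfate sodium. The WT group had no Cre, and the cKO group also carried VilCre, a Cre recombinase driven by the Villin promoter, which is active in intestinal epithelium and not in immune or stromal cells. Tumours of a group were pooled before dissociation, so 1 library stands for each genotype. With no replicates there is no test of genotype, and every interval below is a 95% interval that covers counting error only, not variation between mice. No source used here gives the age, sex or number of the mice.

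Ribosomal proteins assemble with ribosomal RNA in the nucleolus into the large and small subunits, and their messenger RNAs are among the most abundant in a growing cell. These messengers typically begin with a C followed by a run of pyrimidines, the terminal oligopyrimidine motif, through which the mTORC1 pathway and the RNA-binding protein LARP1 adjust their translation and stability together. snoRNAs guide the chemical modification of ribosomal RNA and are cut from introns, many of them introns of ribosomal protein genes. Gas5 and the Snhg genes carry snoRNAs in their introns while the spliced RNA encodes no abundant protein and is degraded during translation by nonsense-mediated decay. Gas5 was named for its accumulation in growth-arrested cells. In the colon, ribosome production is high in dividing crypt cells and in tumours.

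The stretch around the annotated transcription start is shown for the members on which the results below turn, because the pyrimidine run that many of these genes carry lies there. Each window holds the 15 bases before and the 15 bases after a RefSeq start in GRCm38.p6, 5′ to 3′ on the gene's own strand, and capitals mark every run of a C followed by at least 4 bases that are C or T and beginning within 10 bases of the start.
Gas5: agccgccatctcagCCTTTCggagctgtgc
Snhg8: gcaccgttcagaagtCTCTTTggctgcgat
Snhg12: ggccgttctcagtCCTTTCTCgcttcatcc
Snhg1: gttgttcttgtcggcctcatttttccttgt
Rpl35a: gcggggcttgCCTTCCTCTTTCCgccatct
Rps15a: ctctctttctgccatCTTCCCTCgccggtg
Rpl35: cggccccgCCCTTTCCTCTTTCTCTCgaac
Rps9: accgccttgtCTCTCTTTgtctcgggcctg
Rps27: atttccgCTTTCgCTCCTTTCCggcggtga
Rps27l: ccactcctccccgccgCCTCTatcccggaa
Rpl41: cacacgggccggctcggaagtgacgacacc
The windows lie at chr1:161035151-161035180 (plus strand, the second of 2 listed starts) for Gas5, chr3:123508322-123508351 (minus) for Snhg8, chr4:132308663-132308692 (plus) for Snhg12 and chr19:8723472-8723501 (plus) for Snhg1. Those of the ribosomal protein genes lie at chr16:33056467-33056496 (plus, the second of 3 listed starts) for Rpl35a, chr7:118116133-118116162 (minus) for Rps15a, chr2:39005117-39005146 (minus) for Rpl35 and chr7:3704026-3704055 (plus) for Rps9. They lie at chr3:90213634-90213663 (minus) for Rps27, chr9:66946071-66946100 (plus, the first of 2 listed starts) for Rps27l and chr10:128549154-128549183 (minus) for Rpl41. The other listed starts of Gas5, Rpl35a and Rps27l held no such run.

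Of 83 ribosomal protein members, 63 had a start in the RefSeq table, and 38 of these (60.3%) held such a run at a listed start, against 31.5% of 27025 genes in the table. Of 4 hosts with a listed start, 3 held one, and the window of Snhg1 did not. Only the gene's own strand was searched, and a match describes letters, not a tested element. In GENCODE release M21 of GRCm38, 30 ribosomal protein genes enclosed 58 snoRNA genes on the same strand, among them Rpl13a with 4. The host Gas5 (ENSMUSG00000053332, chr1:161034422-161038539) enclosed 10 annotated small RNA genes, Snhg1 (ENSMUSG00000108414) 8, Snhg12 (ENSMUSG00000086290) 5, and Snhg6 (ENSMUSG00000098234) and Snhg8 (ENSMUSG00000104960) 1 each. Gas5 overlaps Zbtb37 on the opposite strand, Snhg6 overlaps Mcmdc2, and Rpl35 overlaps Wdr38 and Arpc5l. No source used here says how strand entered the counting, so reads of such partners may be included. A further 298 annotated pseudogenes are named after 60 of the members, so that levels of single ribosomal protein genes are uncertain where reads could be split among copies.

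After filtering, 7245 WT and 4388 cKO cells remained, with medians of 3723 and 6927.5 UMIs, and 22 barcode sequences occurred in both libraries. Clustering gave 30 clusters, and no member was among the genes used for it. Of these, 9 were epithelial-like, with 2863 WT and 1845 cKO cells and all 14 epithelial markers at 10 CPM or more (UMIs of a gene per 1000000 UMIs of the class). The same markers served to name the clusters, so their count is no independent check. By mean marker level relative to all clusters (log2), cluster 1 scored highest for glial markers, at 0.25. Cluster 14 scored highest for enteroendocrine markers, at 1.27. Both met the rule for epithelial-like cells given below. The targeted gene Mtch2 had a level of 94.0 CPM in WT epithelial-like cells against 23.3 CPM in cKO. It had 48.3 and 42.2 CPM in T-like cells, and 43.7 and 19.2 CPM in neutrophil-like cells from 41 and 37 UMIs. The pools also differed in sex. Cells with UMIs of Xist and none of Y-linked genes were assigned female, and cells with the reverse male. Cells with UMIs of both kinds or of neither were left without a sex. By this rule 1795 WT and 657 cKO cells were assigned female and 1839 and 2217 male.

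Ribosomal protein UMIs made up 11.9% of all UMIs in WT epithelial-like cells and 13.1% in cKO, which is 118832 and 131490 CPM and a ratio of 1.11, or 0.15 on the log2 scale (0.14 to 0.15). Over single cells the median share was 9.77% in WT and 9.43% in cKO, with the lower quartile at 5.60% and 4.29% and the upper quartile at 13.3% and 14.4%. The quartiles of the cKO cells thus lay farther apart than those of the WT cells. Weighting each cell equally, in place of summing UMIs, gave a log2 ratio of 0.014. With all epithelial-like cells divided into 4 groups at the quartiles of their UMI count, the log2 ratio of cKO over WT was -0.60 in the shallowest group (641 to 5684 UMIs), -0.093 and 0.084 in the middle groups and 0.15 in the deepest. In both libraries the share was higher in deeper cells, from 7.37% to 13% in WT and from 4.85% to 14.4% in cKO. Median depth was 25805 UMIs in WT and 32030 in cKO, and the part of depth in the difference was not tested.

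Among the other classes the share spanned a wide range, and the difference between libraries went either way. Of classes present in both libraries it was highest in mast and basophil-like cells (15% in WT and 16.2% in cKO) and B-like cells (14.7% and 15.5%). T-like cells, at 12.3% and 12.1%, lay just above epithelial-like cells in WT and below them in cKO. With cells weighted equally they lay above them in both, by 0.28 and 0.27 on the log2 scale. Macrophage and monocyte-like cells had 9.64% and 9.53%, fibroblast-like cells 9.91% and 9.57%, dendritic-like cells 12.3% and 13.1%, and endothelial-like cells 8.03% and 7.78%. The classes with the lowest shares were neutrophil-like cells, at 4.02% and 3.0%, and erythroid-like cells, at 2.92% and 2.04% from 14 and 15 cells. Squamous-like cells, found in the cKO library only, had 18.3% in 53 cells, the highest share of any named class. Among the unnamed clusters, cluster 18, with mitotic genes among its leading genes, had 20.2% and 22.9%.

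**Figure D1:**
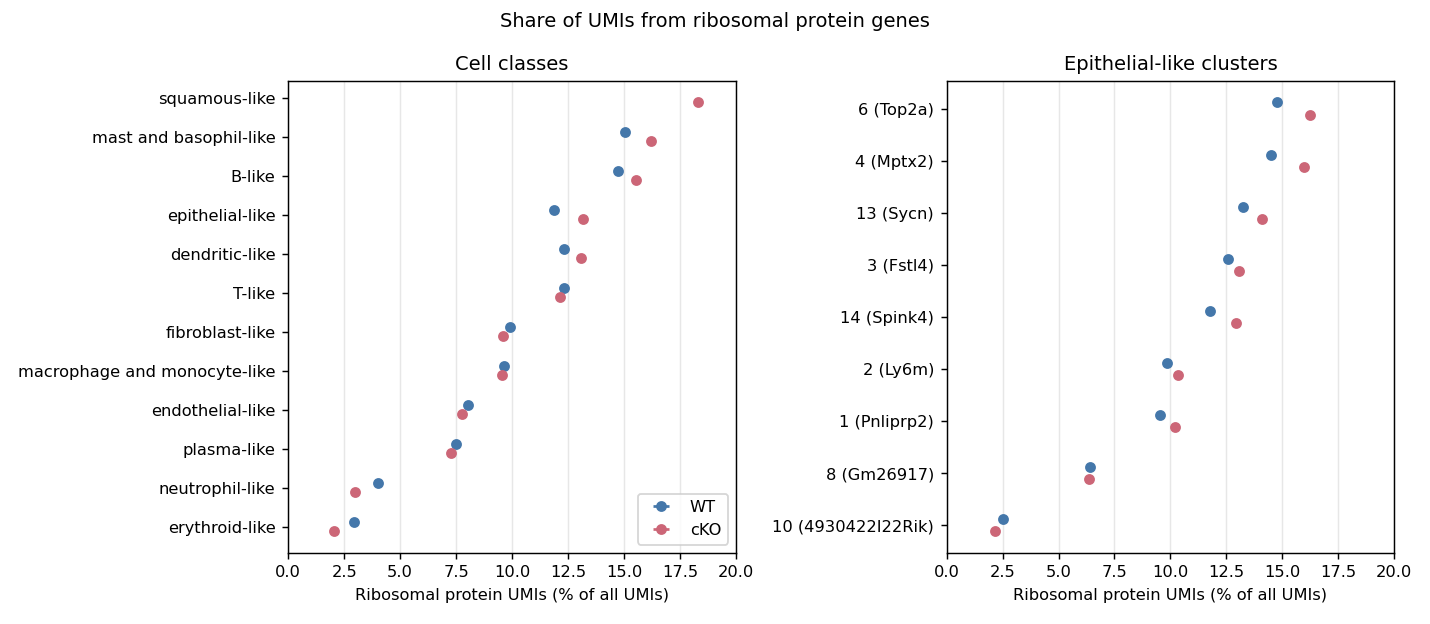
Share of all UMIs that came from the 83 ribosomal protein genes (x axis, percent), for each cell class (left) and each epithelial-like cluster with its leading gene (right). Points are the WT and cKO libraries with 95% counting intervals, which are mostly smaller than the points. Squamous-like cells occur in cKO alone, at 18.3%, and neutrophil-like cells lie at 4.02% and 3.0%.

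Within the epithelium the share differed more between clusters than between libraries. It was highest in cluster 6, the mitotic-like cells led by Top2a and Ube2c (14.8% in WT and 16.2% in cKO), and in cluster 4, led by Mptx2 and S100g (14.5% and 16%). The absorptive-like cluster 13 had 13.3% and 14.1%, cluster 3, with Lgr5 among its leading genes, 12.6% and 13.1%, and the goblet and Paneth-like cluster 14 had 11.8% and 12.9%. Cluster 2, led by Ly6m with Krt20, had 9.85% and 10.3%, and cluster 1, led by Pnliprp2, had 9.52% and 10.2%. The share was thus higher in cKO in 7 of the 9 clusters, by 0.056 to 0.14 on the log2 scale.

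The other 2 clusters had the lowest shares in the epithelium. Cluster 8, led by Gm26917 and Peak1, had 6.42% and 6.36%, and cluster 10 had 2.51% and 2.17%. Both were shallow, with medians of 3291 and 3320 UMIs in cluster 8 and 4536.5 and 2343 in cluster 10, and mitochondrial UMIs made up 11.2% to 12.5% of their total. The nuclear RNA Malat1 reached 47017 and 51244 CPM in cluster 10, against 10349 and 8549 CPM in cluster 6, where the ribosomal protein share was highest. Leaving out clusters 8 and 10 left the epithelial log2 ratio at 0.15. The part of depth and of Malat1 in these low shares was not tested.

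**Figure D2:**
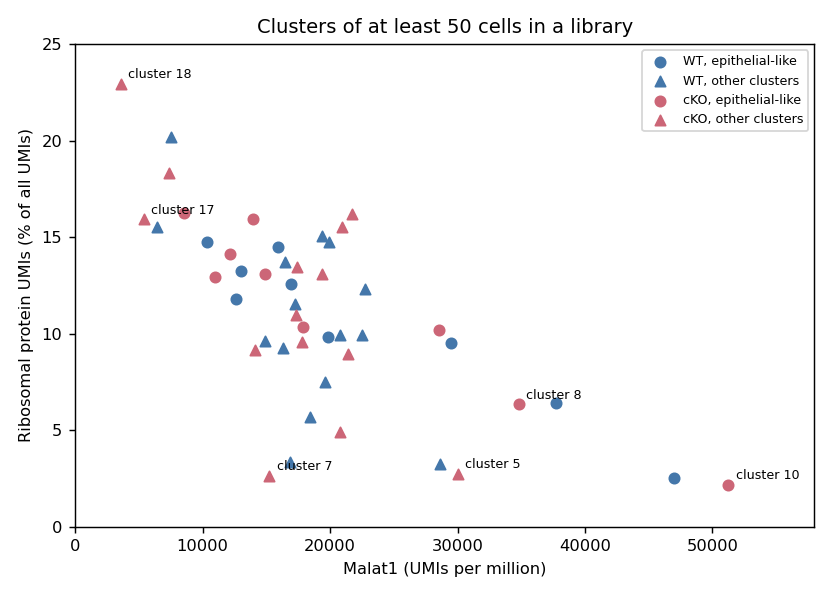
Ribosomal protein share (y axis, percent of UMIs) against the level of the nuclear RNA Malat1 (x axis, CPM) for clusters with at least 50 cells in a library, one point per cluster and library, circles for epithelial-like clusters and triangles for the rest. Clusters 10 and 8 have the highest Malat1 of the clusters shown and shares from 2.17% to 6.42%, and the neutrophil-like cluster 7 is low in share at 16845 and 15242 CPM of Malat1.

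Gene by gene, nearly every ribosomal protein gene was slightly higher in cKO when UMIs were summed over all epithelial-like cells. Such sums also depend on how the cells are spread over clusters. Over the class the log2 ratio of the ribosomal protein sum was 0.146, above that of any single cluster. Clusters ranged from -0.21 in cluster 10 to 0.14 in cluster 4. With equal weights for clusters of at least 100 cells per library it was 0.085. The part of cluster makeup was not tested. Of 83 members, 80 were measured, that is, at 10 CPM or more in either library. Of these, 78 were higher in cKO and 2 lower, where 44.3% of all 9389 measured genes were higher and 55.7% lower. By a fold of 1.1, 48 of the 80 were higher and 0 lower, beside 14.7% and 19.6% of all measured genes. At a log2 ratio of 0.32 or more, 0 of the 80 differed in either direction, beside 3.15% higher and 4.6% lower of all. The median log2 ratio of the 80 was 0.15 and that of all measured genes -0.020. The genes with snoRNAs inside and those without had medians of 0.15 and 0.15, and those with and without a pyrimidine run 0.16 and 0.16. The large and small subunits kept their proportion, with 55.7% of ribosomal protein UMIs from the large subunit in WT and 55.5% in cKO.

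Among the highest levels, in UMIs, were those of Rpl41, the shortest ribosomal protein, at 2889 (WT) and 3256 CPM (cKO), and of Rpl13, at 2534 and 2844 CPM. The largest ratios among the ribosomal protein genes were those of Rpl35a, a large subunit protein mutated in some cases of Diamond-Blackfan anaemia, at 1221 and 1443 CPM (log2 0.24, 0.23 to 0.25), and Rpl30, at 1384 and 1616 CPM (log2 0.22). Rps15a stood at 1424 and 1655 CPM, Rps7 at 1427 and 1657 CPM, each with a log2 ratio of 0.22, and Rps23, which lies near the decoding centre, at 1554 and 1796 CPM with 0.21. These ratios lie close together.

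Rps29 and Rpl35 were the ribosomal protein genes that were lower in cKO. Rps29, a zinc-binding small subunit protein, measured 1798 CPM in WT against 1701 CPM in cKO (log2 -0.080, -0.091 to -0.069). Rpl35, which sits near the exit of the nascent peptide tunnel, measured 733 against 715 CPM (log2 -0.036, -0.053 to -0.019). Each was lower in cKO in 8 of 8 epithelial-like clusters with at least 100 cells per library, while Rpl36 and Rps4x were the ribosomal protein genes higher in 8 of 8. The part of all ribosomal protein UMIs that came from Rpl35 was lower in cKO in 9 of 9 classes with at least 50 cells per library, with a median log2 ratio of -0.30, and that from Rps29 in 8 of 9, with a median of -0.21 and with neutrophil-like cells at 0.049 as the exception. Rpl4 and Rpl6 were lower in 9 of 9 classes as well, and Rps23 and Rps25 higher in 9 of 9, by medians of 0.059 and 0.089. These classes include immune and stromal cells, in which the Cre is not driven. Library preparation and genotype cannot be told apart.

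**Figure D3:**
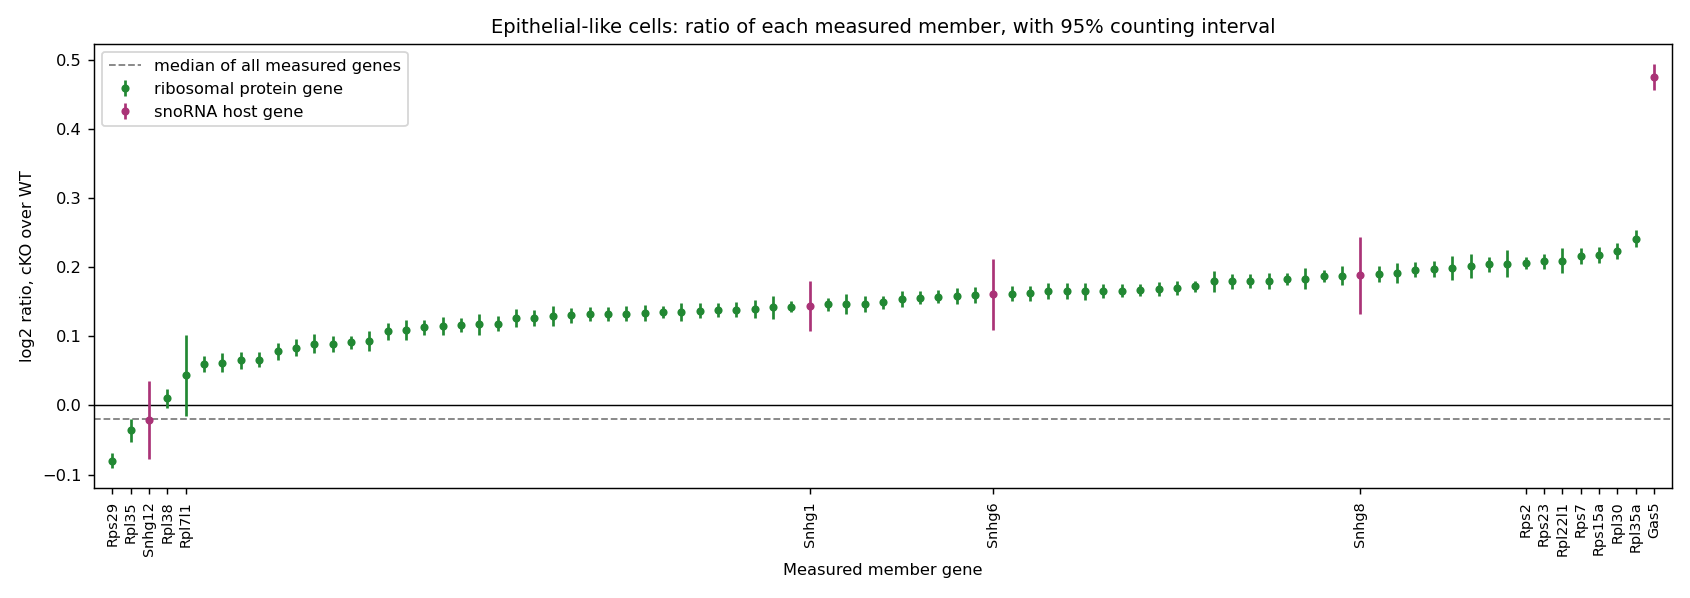
Log2 ratio of cKO over WT in epithelial-like cells (y axis) for each of the 80 measured ribosomal protein genes and the 5 snoRNA hosts (x axis, ordered by ratio, with the hosts and the genes at both ends labelled), with 95% counting intervals. The dashed line is the median of all measured genes, and Gas5 at 0.47 lies apart from the ribosomal protein genes, which end at 0.24.

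Pairs of related genes were used unequally. Rpl10l, Rpl39l and Rpl3l, known as testis or muscle forms, were at or near 0 in epithelial-like cells, with no UMI of Rpl10l in either library, at most 1 of Rpl39l in a library, and 13 and 14 of Rpl3l. Their partners had 1361 and 1424 CPM (Rpl10), 1490 and 1671 CPM (Rpl39) and 1364 and 1555 CPM (Rpl3). Rpl22l1, the paralog of Rpl22, was present at 560 and 648 CPM (log2 0.21), and Rpl22 at 833 and 951 CPM (log2 0.19). Rpl7l1 stood at 57.7 and 59.4 CPM, far below Rpl7 at 1595 and 1756 CPM. Rps27l, a p53-induced paralog of Rps27, was at 476 and 549 CPM, and Rps27 at 1080 and 1128 CPM. The symbol pattern left out some near-identical copies. Of these Rpl36al stood at 561 and 615 CPM (log2 0.13), Rps27rt at 47.0 and 66.1 CPM (0.49) and Rpl10-ps3 at 55.2 and 72.5 CPM (0.39). No source used here says how reads were divided between such copies.

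The makeup of the ribosomal protein pool also differed between classes. Rps27l made up 0.40% of ribosomal protein UMIs in WT epithelial-like cells and 0.13% in T-like cells, while Rps27 made up 0.91% and 1.47%, and 2.61% in neutrophil-like cells. Of the 4 classes with at least 100 cells per library, epithelial-like cells thus had the highest share of Rps27l and the lowest of Rps27. Rps9 made up 3.27% of the pool in WT and 4.43% in cKO neutrophil-like cells, against 1.53% and 1.52% in epithelial-like cells. Rps15a was highest in T-like cells, at 1.79% and 1.91%, and lowest in neutrophil-like cells, at 0.911% and 0.967%. Rps29 made up 2.82% in WT macrophage and monocyte-like cells and 1.51% in epithelial-like cells, and Rpl7 was highest in epithelial-like cells, at 1.34%. The class with the highest and the class with the lowest share were the same in both libraries for each of these 6 genes. They were chosen for a wide range of share over classes in both libraries, which favours such agreement.

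Of the snoRNA hosts, Gas5 differed most between the libraries in epithelial-like cells. Its level was 475 CPM for WT and 660 CPM for cKO, a 1.39-fold ratio (log2 0.47, 0.46 to 0.49). It was the 1 member of 85 measured with a log2 ratio of at least 0.32, a smaller share than the 3.15% of all measured genes. It did not reach that ratio with cells weighted equally, and in cells assigned female it was lower in cKO. Gas5 was higher in cKO in 8 of 8 epithelial-like clusters with at least 100 cells per library, from 0.054 to 0.78 on the log2 scale. The share of all measured genes higher in 8 of 8 is not given here. Its level was highest in cluster 4, at 660 and 847 CPM, and in the mitotic-like cluster 6 it went from 472 to 812 CPM. It was lowest in cluster 10, at 109 and 137 CPM. Across classes the cKO level was highest in squamous-like cells, at 733 CPM, and the lowest of the larger classes was neutrophil-like cells, at 156 and 135 CPM. In macrophage and monocyte-like cells Gas5 was lower in cKO, at 219 and 187 CPM, and in fibroblast-like cells at 459 and 326 CPM.

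The other hosts differed less. Snhg1, known as the U22 host gene, stood at 150 and 165 CPM (log2 0.14), Snhg6 at 71.1 and 79.5 CPM (0.16) and Snhg8 at 62.3 and 70.9 CPM (0.19) in epithelial-like cells. Snhg12 stood at 65.3 and 64.4 CPM, with an interval of the log2 ratio from -0.077 to 0.035. The summed level of the 5 hosts was 823 and 1040 CPM, a log2 ratio of 0.34, and without Gas5 it was 0.13. T-like cells had 586 and 639 CPM of the 5 hosts together, macrophage and monocyte-like cells 386 and 362, and neutrophil-like cells 288 and 229. Epithelial-like cells therefore held the most host RNA of these 4 classes in both libraries. Snhg8 went the other way, with 87.1 and 99.3 CPM in T-like cells, above its epithelial level.

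**Figure D4:**
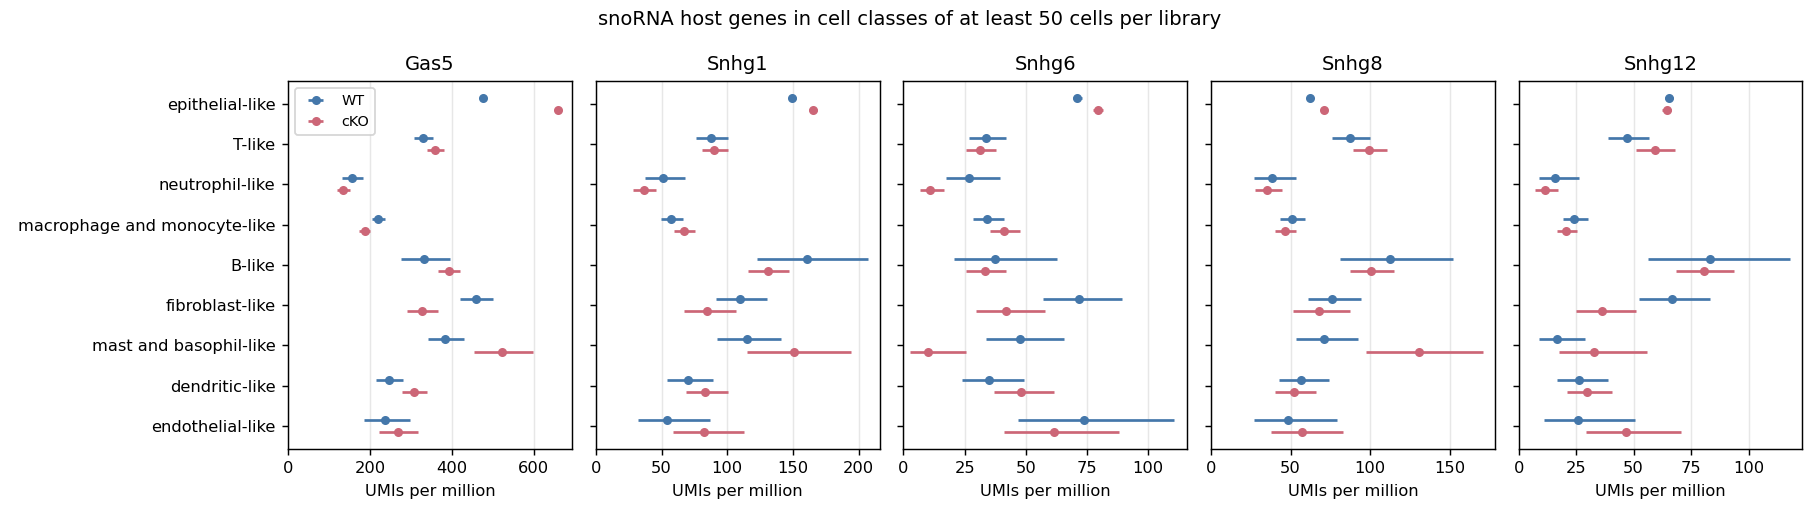
Levels of the 5 snoRNA host genes (x axes, CPM, each with its own scale from 0) in the 9 cell classes with at least 50 cells per library. Points are the WT and cKO libraries with 95% counting intervals. Gas5 in epithelial-like cells, at 475 and 660 CPM, shows the clearest separation.

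Epithelial-like cells assigned to the 2 sexes differed between libraries in opposite directions. Among cells assigned male the ribosomal protein share was 11.6% in WT (1036 cells) and 13.3% in cKO (1095 cells), a log2 ratio of 0.20, and 78 of 80 measured ribosomal protein genes were higher, beside 38.2% of all genes, and 2 lower, beside 61.8%. Among cells assigned female it was 12% (878 cells) and 11.5% (288 cells), a log2 ratio of -0.056, and 62 of 80 were lower, beside 46.8% of all genes, and 18 higher, beside 53.2%. Cells without an assigned sex, which held UMIs of both kinds or of neither, were 33.1% of the epithelial-like cells in WT and 25% in cKO. These cells went the way of the male cells, with shares of 12.1% and 13.7% and Gas5 at 478 and 634 CPM. Gas5 showed the same split, with 476 and 718 CPM in male and 470 and 400 CPM in female cells, or 0.59 and -0.23 on the log2 scale. The 2 WT groups had nearly the same Gas5 level, and the 2 cKO groups lay apart. Mtch2 was low in both cKO groups, at 32.2 CPM in female and 20.9 CPM in male cells. In cluster 2, Gas5 differed most, and went from 188 to 423 CPM in male and from 234 to 140 CPM in female cells. In female cells the interval of the Gas5 ratio lay below 0 only in clusters 1 (log2 -0.39) and 2 (-0.74). It held 0 in clusters 3, 6, 8, 10, 13 and 14. In male cells that interval lay above 0 in every cluster but 8 and 10. The opposite directions of the ribosomal protein sum were seen in clusters 1, 2, 3 and 6, and in cluster 4 from 2 female cKO cells. The sum was higher in cKO for both sexes in cluster 13, by 0.13 in female and 0.039 in male cells, and in cluster 14, by 0.078 and 0.18. It was lower for both in cluster 8, at -0.12 and -0.045, and in cluster 10, at -0.41 and -0.34. Cells assigned male made up 59.3% of cKO and 36.2% of WT epithelial-like cells, and cells assigned female 15.6% and 30.7%. The rest had no assigned sex. Since cells of a sex come from an unknown number of mice, sex and individual animals cannot be told apart.

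**Figure D5:**
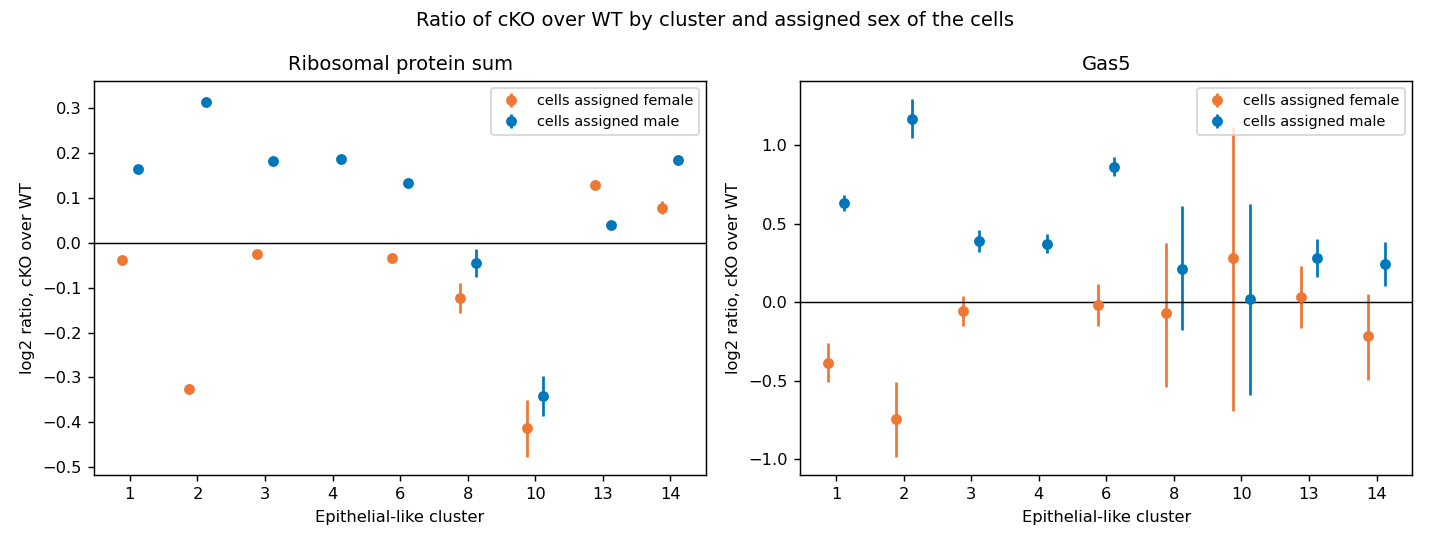
Log2 ratio of cKO over WT (y axes) in each epithelial-like cluster (x axes) for cells assigned female or male, for the ribosomal protein sum (left) and Gas5 (right), with 95% counting intervals. Female cells of cluster 4 are left out, since the cKO library held 2 of them, and cluster 2 shows the widest separation in both panels.

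In classes in which the Cre is not driven the ribosomal protein genes differed in other ways. In T-like cells 28 of 80 were higher and 52 lower in cKO, beside 48.5% and 51.5% of all genes, and their median log2 ratio was -0.028. Their sum had a log2 ratio of -0.024 over the class, which joins 2 clusters of unlike share. In cluster 9 the share was 13.7% in WT and 13.5% in cKO (log2 -0.028). In cluster 15 it was 9.92% and 8.93% (log2 -0.15). Rpl35 was the 1 ribosomal protein gene lower by 0.32 or more, beside 15.5% of all genes, at 711 and 555 CPM (log2 -0.36). Rps29 was also lower, at 2454 and 2152 CPM, and Rpl29 at 788 and 691 CPM (both -0.19). Rps24 had the largest ratio upward, at 3381 and 3685 CPM (log2 0.12), and was higher in 1 of the 2 clusters. Of the hosts 1 was higher by 0.32 or more, beside 12.8% of all genes: Snhg12, at 47.1 and 59.1 CPM, with an interval from -0.0099 to 0.67. Snhg12 too was higher in 1 of the 2 clusters. In macrophage and monocyte-like cells 33 were higher and 47 lower, beside 43.0% and 57.0% of all genes, and 0 differed by 0.32 or more, beside 13.3% higher and 20.3% lower. Rps9 was the 1 ribosomal protein gene higher by 1.1-fold, beside 26.5% of all genes, at 1612 and 1841 CPM (log2 0.19). By that fold 6 were lower, beside 38.7% of all genes. Among these were Rps29, at 2717 and 2286 CPM (log2 -0.25), and Rpl12, a protein of the stalk base, at 1176 and 1000 CPM (log2 -0.23).

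Of the 4 classes with at least 100 cells per library, neutrophil-like cells differed most in the ribosomal protein sum, with a log2 ratio of -0.42. Of 81 measured ribosomal protein genes 79 were lower and 2 higher in cKO, beside 72.9% and 27.1% of all 7470 measured genes. By a log2 ratio of 0.32 or more 66 were lower, beside 47.2% of all genes, and the median log2 ratio was -0.48 for the members and -0.29 for all genes. Rpl14 was at 249 and 134 CPM (log2 -0.90), Rpl12 at 405 and 226 CPM and Rpl31 at 213 and 120 CPM (both -0.84). Rps9 did not follow them, at 1312 and 1330 CPM, with an interval of the log2 ratio from -0.080 to 0.12. Rps27a did not either, at 971 and 962 CPM (-0.13 to 0.10). The intervals of Rpl35a and Rpl7a, among others, also held 0. Rpl3l, named after its values were seen, was the 1 member higher by 0.32 or more, beside 10.6% of all genes, and rests on 8 and 24 UMIs. Of the neutrophil-like clusters, cluster 7 held 156 of the 237 cells in WT, 306 of the 399 in cKO, and within it the ribosomal protein share was 3.36% and 2.65%. In cluster 20, with the other 81 and 93 cells, it was 5.67% and 4.89%. The log2 ratios were -0.34 in cluster 7 and -0.22 in cluster 20, both smaller in size than that of the class. The part of cluster makeup was not tested.

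Genes that act with the ribosome were set beside all measured genes of epithelial-like cells, of which 44.3% had a ratio above 0 and 55.7% one below 0. By a log2 ratio of 0.32 or more, 3.15% of all measured genes were higher and 4.6% lower. The 6 measured elongation factors all had ratios above 0, with a median of 0.14, although Eef2, which moves the ribosome along the message, stood at 692 and 692 CPM. All 8 ribosome-associated and fused proteins were higher, with a median of 0.13, and Fau, which yields a ubiquitin-like protein and the small subunit protein eS30, stood at 1746 and 1850 CPM (log2 0.084). Of 50 ribosome assembly factors 41 were higher, with a median of 0.095. Npm1, a nucleolar chaperone, stood at 743 and 948 CPM (log2 0.35), and Dkc1, the pseudouridine synthase of box H/ACA particles, at 30.2 and 38.2 CPM (0.34). These were the 2 of the 50 that were higher by 0.32 or more. Of 29 initiation factors 17 were higher and 12 lower, with Pabpc1, the poly(A)-binding protein, at 843 and 1015 CPM (0.27), and of 25 RNA polymerase I and III genes 16 were higher and 9 lower.

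The same background of 44.3% higher and 55.7% lower holds for the upstream regulators and the decay machinery, and the mTORC1 list lay near it. Of 12 other snoRNA hosts 8 were higher, with a median of 0.060. By 0.32 or more 1 of the 12 was higher, beside 3.15% of all measured genes: Snhg4, at 23.6 and 30.8 CPM. The mTORC1, MYC family and p53 lists below held 1 such gene each, of 23, 9 and 15. Of 14 nonsense-mediated decay factors 4 were higher and 10 lower, and Smg1, the kinase that phosphorylates UPF1, stood at 204 and 178 CPM (log2 -0.20). Of 23 mTORC1 and LARP1 genes 11 were higher and 12 lower, with Eif4ebp1, a repressor of cap-dependent initiation, at 35 and 46.2 CPM (0.40). Of 9 MYC family genes 1 was higher, Mycl, at 23.7 and 36.3 CPM (0.61). Of 15 genes of nucleolar stress and p53 8 were higher and 7 lower, with Eda2r at 11.9 and 16.7 CPM (0.49) and Cdkn1a, the cell cycle inhibitor p21, at 272 and 243 CPM (-0.16).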

How the data were processed

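Raw UMI counts of each gene in each barcode were deposited by the authors. Per the file headers, Cell Ranger 7.2.0 produced them, and per the submitters' processing notes Seurat 3.0 and mm10 were used. WT had 9445 deposited barcodes and 116066712 UMIs, and cKO had 6723 and 97364087. Barcodes with under 500 genes or over 25% mitochondrial UMIs were removed, and the highest Scrublet scores were removed as doublets, at 0.8% per 1000 barcodes. Scanpy 1.11.5 clustered the libraries together (2000 variable genes without members, 30 components, 20 neighbours, Leiden resolution 1). Clusters were named "-like" from marker lists and otherwise left unnamed. The score of a class was the mean log2 level of its markers relative to all clusters. A class other than epithelial needed a score of 2 and a lead of 2. The rule for epithelial-like was looser. It asked for an epithelial score above the middle of its range, with all classes but enteroendocrine and tuft under 1. For each class and library, UMIs were summed and scaled to 1000000 UMIs (CPM), and log2 ratios of single genes used 0.5 added UMIs. Intervals are exact Poisson for levels, Clopper-Pearson for shares and conditional binomial for ratios. The ratio calculation was tested on simulated Poisson counts only. These follow the counting model of the intervals and hold no variation between cells, clusters or mice. A UMI stands for 1 captured transcript, so levels were not divided by gene length.

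Members, gene lists and the rule for named genes were chosen with earlier results of these data known. The rule took all hosts, related pairs, the highest 3 levels, the 6 largest ratios each way in epithelial-like and 3 in other classes at 50 CPM or more, the 6 ribosomal protein genes at that level whose share varied most between classes, and from each other list the 2 largest ratios each way, of which the text gives some. Some genes that the rule names are not reported here. Gene positions came from GENCODE M21 and start windows from RefSeq, both on GRCm38. Alternatives covered cell filters, clustering, gating, scaling, weighting, sex, the level minimum and the pseudocount. Unnamed clusters stayed out of the classes.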

Additional observations from a re-analysis of the deposited data

Results flagged for a closer look

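The ribosomal protein sum went opposite ways in 2 classes. The log2 ratio of cKO over WT was 0.15 in epithelial-like cells and -0.42 in neutrophil-like cells, and the difference between them was not tested. Within the neutrophil-like clusters 7 and 20 it was -0.34 and -0.22, and the part of cluster makeup was not tested. Median depth in neutrophil-like cells was 3860 UMIs in WT and 4698 in cKO.

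Cells assigned to the sexes also went opposite ways in the epithelium. The log2 ratio of the ribosomal protein sum came to -0.056 for female and 0.20 for male cells. For Gas5 it was -0.23 and 0.59, and by cluster the female interval lay below 0 only in clusters 1 and 2. Neither difference was tested, since each library is 1 pool. Median depth was 19646.5 and 25728 UMIs in female WT and cKO cells and 30247.5 and 37391 in male cells.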

How the results depend on the processing

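The ribosomal protein log2 ratio in epithelial-like cells (0.15) turned to -0.056 in female and was 0.20 in male cells. Averaging CPM over cells gave 0.014, and weighting clusters equally 0.085. It was 0.144 with all deposited barcodes, 0.162 with at most 10% mitochondrial UMIs, 0.155 at Leiden resolution 0.5, 0.177 with cells gated 1 by 1, 0.152 with the unnamed clusters 0, 5 and 18, and 0.143 scaled without Malat1 and Gm42418. Scaled without mitochondrial, haemoglobin and immunoglobulin genes it was 0.161, also without members 0.186, and 0.166 with median-of-ratios scaling. The host ratio (0.34) turned to -0.14 in cells assigned female. It was 0.41 in cells assigned male, 0.20 as a per-cell mean, 0.296 with equal cluster weights, 0.126 without Gas5, 0.359 under the mitochondrial limit, 0.356 with gated cells, and 0.352, 0.377 and 0.357 under the same 3 scalings. The T-like over epithelial-like ratio in WT (0.054) was 0.126 with all barcodes, 0.073 at resolution 0.5, 0.036 with gated cells and 0.277 as a per-cell mean. In cKO (-0.12) it was -0.054, -0.106 and -0.167, and turned to 0.273 as a per-cell mean. The count of members higher by a log2 ratio of 0.32 or more (1) was 0 as a per-cell mean and in female cells, and 3 with no minimum level, where Rpl3l and Rpl39l, with at most 14 UMIs in a library, enter. The count lower stayed at 0 under all alternatives run. The cause was not tested. The settings without clusters 8 and 10, with the unnamed clusters, without Malat1 and Gm42418, and without Gas5 were chosen after seeing the data.

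No paired analysis was possible because each genotype has 1 library. Leaving out a replicate was not run, as there is none to leave out. Low counts limit single genes in the smaller classes.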
